A study of Mus musculus with 8 samples.

Results

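Iron enters, leaves and is stored in myeloid cells through a small set of gene products, and 9 of their genes were followed here. They were *Tfrc*, *Slc11a1*, *Slc11a2* and *Hfe* for uptake and its control, *Hmox1* for release of iron from haem, *Fth1* and *Ftl1* for storage, and *Slc40a1* and *Cp* for export. A probe set, the group of short probes that measures 1 transcript on the array, counted as a member when the platform annotation gave it 1 of these symbols and no other. This rule found 24 of the 22690 probe sets on the array, for 8 of the 9 genes. Of these, 21 were tested and 3 were manufacturer's control probe sets for *Tfrc*. *Ftl1* had no probe set of its own.

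All cells came from the spleens of 4 male *Tff2*-/- mice on a C57BL/6 background, 16 weeks old, so every culture, the controls too, lacked endogenous trefoil factor 2 (TFF2). The mice drank 3% dextran sodium sulfate (DSS), which injures the colon, for 5 days and then plain water for 14 days. Gr1+Cd11b+ cells, a mixed population of immature myeloid cells, were sorted from each spleen and divided between a pair of cultures kept for 7 days. One of each pair received GM-CSF (Csf2, a growth factor for granulocytes and macrophages) plus 3 µM mouse recombinant TFF2 (rTFF2), and the other received GM-CSF alone. The labels give the GM-CSF dose as 5 nM, whereas the study's methods give a lower one by mass, so the dose is not settled here. It was the same in both cultures of a pair. Each culture was measured on 1 Affymetrix array, giving 4 arrays with GM-CSF plus rTFF2 and 4 with GM-CSF alone, paired by mouse. Sorting preceded the 7 days of culture, so the arrays measured the cells that were present at its end.

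Most cells take up iron as transferrin bound to its receptor, and macrophages also recover it from the haem of ingested red cells. Iron that is not used is held in ferritin or leaves the cell through ferroportin, the product of *Slc40a1*. Iron regulatory proteins adjust several of these transcripts after transcription, by binding stem-loops in the ferritin, ferroportin and transferrin receptor messages. The circulating hormone hepcidin removes ferroportin from the cell surface. Transcript level is therefore one of several controls on these proteins, and protein was not measured on these arrays.

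Values are GCRMA signals on the log2 scale, so a difference of 1 is a doubling of signal, and all differences are the culture with rTFF2 minus the culture with GM-CSF alone, within a mouse. A probe set was called when its adjusted p in a limma fit with mouse as a block was below 0.05 (Benjamini-Hochberg adjustment over 22626 probe sets). A signal above 3.37 was taken as above background, and 95% of the values of 42 genes known from other tissues lay below it. The count of calls over the whole array was large. Of all tested probe sets 25.7% were called in either direction, 13.7% higher and 12% lower with rTFF2. *Itgam*, which encodes Cd11b, was above background on every array (12.56 to 12.87 with GM-CSF plus rTFF2, 12.14 to 12.54 with GM-CSF alone), while the Ly6 genes that define Gr1 had no probe set of their own. Marker genes of several cell types differed as well. All 13 measured neutrophil genes were called higher, and their mean signal was 10.80 to 11.10 with GM-CSF plus rTFF2, against 7.46 to 9.94 with GM-CSF alone. Of 11 dendritic cell genes 9 were called lower (mean signal 5.33 to 5.77, against 6.96 to 7.42), of 11 mast cell and basophil genes 8 were called higher (5.57 to 6.09, against 3.30 to 4.20), and of 19 proliferation genes 17 were called lower (8.82 to 9.46, against 9.79 to 9.86). Of 13 macrophage genes 5 were called higher, among them *Mrc1* (mannose receptor, difference 1.74) and *Mertk* (a receptor for dying cells, 0.84), and 3 lower, the complement genes *C1qa* (-2.91), *C1qb* (-1.58) and *C1qc* (-1.42). The macrophage mean was 9.55 to 9.91 with GM-CSF plus rTFF2 and 9.47 to 10.01 with GM-CSF alone. In RNA of whole cultures, fewer cells of a type and less RNA per cell cannot be told apart. The signal of *Actb* at its 3′ end minus that at its 5′ end, a sign of RNA quality, was 0.66 to 0.74 with GM-CSF plus rTFF2 and 0.42 to 0.62 with GM-CSF alone. It was higher in 4 of 4 mice, by 0.17 on average (exact permutation test over signs, two-sided, p = 0.125, the smallest that 4 mice allow). Within the group with GM-CSF alone, the culture of mouse 2 had the lowest dendritic cell mean, apart from the other 3 (6.96, against 7.35 to 7.42). It also had the lowest macrophage mean (9.47, against 9.89 to 10.01). Its neutrophil mean was the highest (9.94), next to 9.09 in mouse 1 in a group that was spread widely. The part of cell make-up in the differences below was not tested, and for RNA quality the *Actb* measure was added as a covariate in an alternative fit. That measure did not overlap between the groups, so the fit cannot tell RNA quality from rTFF2. Its differences, given below, extrapolate beyond the measured arrays.

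Of the 8 genes with probe sets of their own, 4 held every called probe set. Ferroportin (*Slc40a1*), *Slc11a1* and *Slc11a2* rose with rTFF2 and *Hfe* fell, while *Tfrc*, *Hmox1*, *Fth1* and *Cp* had no called probe set. Of the 21 tested probe sets 8 were called (38.1%, against the 25.7% of all probe sets), 6 higher (28.6%, against 13.7%) and 2 lower (9.52%, against 12%). Probe sets of 1 gene share a target, several members were dim, and the members were chosen with earlier results of these data known. These shares are therefore a description of few genes. In 8 of the 21 the groups did not overlap, against 25.5% of all probe sets. The median difference was 0.15 for the members and -0.02 for all probe sets. In 12 of the 21 the mean of at least 1 group was above background. Without mouse 3, and likewise without mouse 4, 5 member probe sets were called, and without mouse 2 there were 9. Over all probe sets the calls went from 5811 to 3791, 4153 and 5006 in that order.

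**Figure D1:**
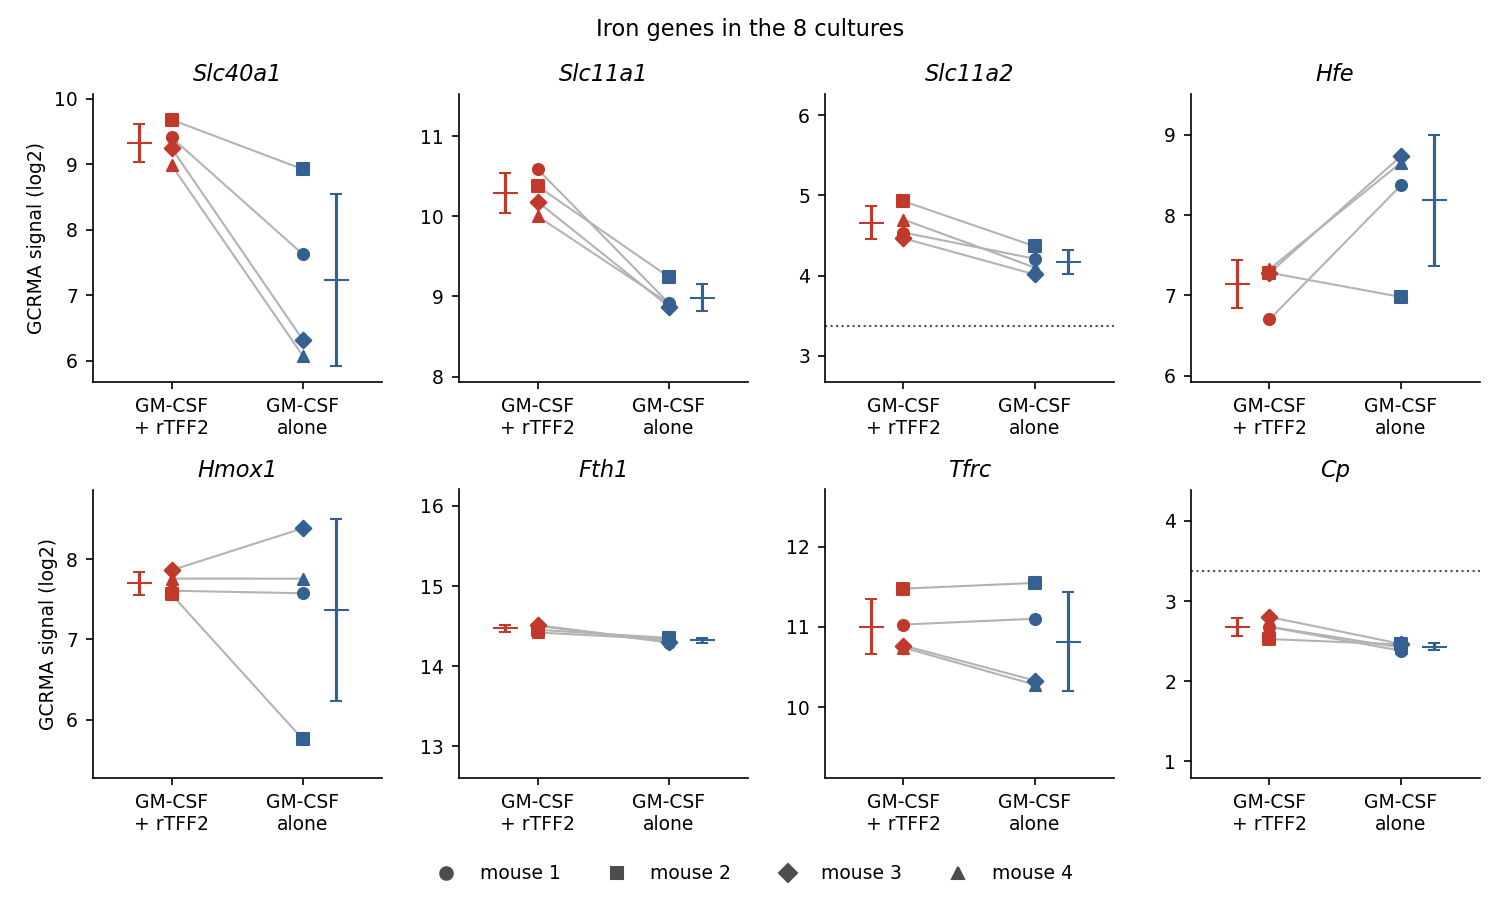
GCRMA signal (log2, vertical axis) of 1 probe set per gene, the brightest, in cultures with GM-CSF plus rTFF2 (red, left) and GM-CSF alone (blue, right). Symbols are mice, grey lines join the cultures of a mouse, bars beside the points are mean and SD (n = 4), and dotted lines mark the background level of 3.37. Every *Slc40a1*, *Slc11a1* and *Slc11a2* line falls toward GM-CSF alone, and the *Hfe* and *Hmox1* lines of mouse 2 run against or apart from those of the other mice.

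Export showed the largest difference. *Slc40a1* encodes ferroportin, the only known exporter of ferrous iron in mammals. Its brighter probe set (1417061_at) had signals of 9.41, 9.68, 9.25 and 8.99 in mice 1 to 4 with GM-CSF plus rTFF2, against 7.63, 8.92, 6.32 and 6.08 with GM-CSF alone. The groups did not overlap, although mouse 2 with GM-CSF alone came within 0.1 of mouse 4 with rTFF2. The cultures with rTFF2 lay close together (9.33 ± 0.29, SD, n = 4) and those with GM-CSF alone were spread widely (7.24 ± 1.31). The order of the mice was the same in both groups, with mouse 2 highest, then mice 1, 3 and 4. The differences within mice 1 to 4 were 1.78, 0.76, 2.93 and 2.91, so the rise was smallest where the culture with GM-CSF alone was brightest. Since that signal is subtracted and the cultures with rTFF2 varied little, this relation is largely built in. On average *Slc40a1* rose by 2.09 (SE 0.35, 95% interval 1.28 to 2.91), a 4.27-fold rise with an adjusted p of 0.00533 by limma. Without mouse 2 the difference was 2.54 (adjusted p = 0.00113).

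The other *Slc40a1* probe set (1448566_at) was dimmer and moved alike. Its signals were 6.41, 6.76, 6.33 and 5.87 with GM-CSF plus rTFF2, against 4.76, 5.52, 3.78 and 3.59 with GM-CSF alone. The groups again did not overlap and mouse 2 was again highest in each. The difference was 1.93 (SE 0.20, 3.82-fold, adjusted p = 0.001 by limma). Both calls held under every alternative tried, but the size did not: with the *Actb* measure as a covariate the brighter probe set differed by 3.73, and with an offset of 32 on the linear scale the dimmer one differed by 1.04.

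Among cultures with GM-CSF alone, *Slc40a1* and the neutrophil genes ranked the mice alike. The mean neutrophil signal there was 9.09, 9.94, 7.81 and 7.46 in mice 1 to 4. In cultures with rTFF2 the same mean was 10.80, 11.02, 11.01 and 11.10, and mouse 4, highest in it, was lowest in *Slc40a1*. Over the 8 arrays, the genes whose signal was most like that of *Slc40a1* among 7715 genes compared were *Mpo* (myeloperoxidase of granulocyte granules, Pearson r = 0.992), *Ctsg* (cathepsin G of the same granules, r = 0.992) and *Tada2b* (a subunit of histone acetyltransferase complexes, r = 0.989). After the group means were taken out, *Rnf34* (a ubiquitin ligase, r = 0.997), *Id1* (an inhibitor of DNA binding, r = 0.991) and *Rrp12* (a factor of ribosome maturation, r = 0.991) came first. These correlations rest on 8 arrays that share 4 mice and both treatments, and were the highest of many. *Mpo* itself had signals of 9.47, 10.54, 9.93 and 9.77 with GM-CSF plus rTFF2, against 6.36, 8.95, 4.33 and 3.60 with GM-CSF alone. Its mice with GM-CSF alone fell in the same order as those of *Slc40a1*. That order was not particular to neutrophil genes. *Bach1* and the *Tfrc* probe set 1452661_at, which was not called, gave it with GM-CSF alone too (*Tfrc* 11.10, 11.55, 10.33 and 10.28 in mice 1 to 4). *Tfrc* followed the order of *Slc40a1* in both groups.

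**Figure D2:**
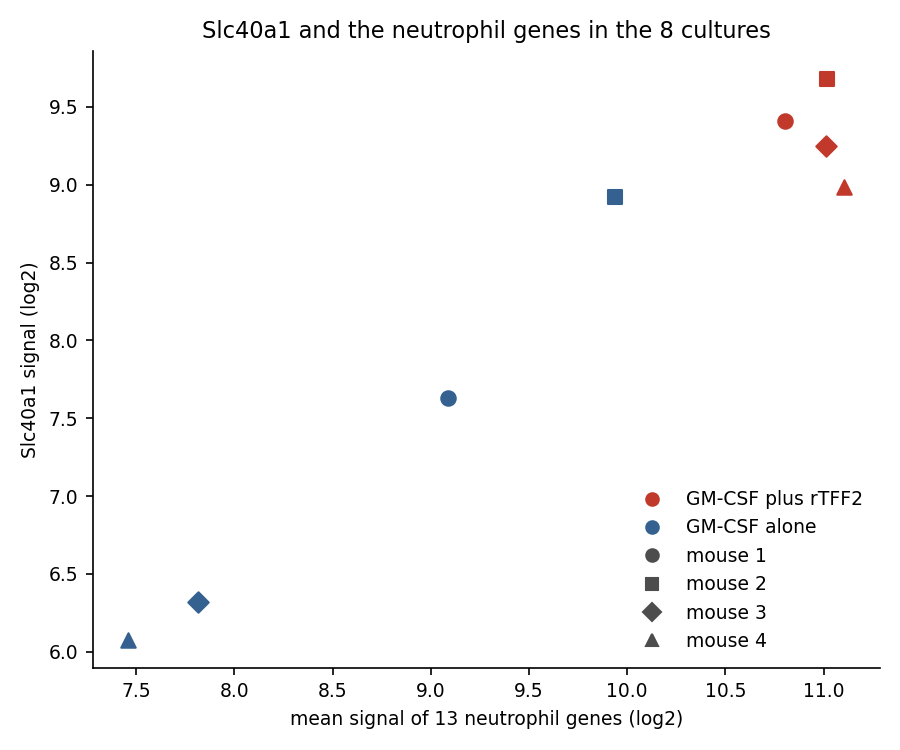
*Slc40a1* signal (log2, probe set 1417061_at, vertical axis) against the mean signal of 13 neutrophil genes (log2, horizontal axis) in the 8 cultures. Colour gives the treatment and symbol shape the mouse. The 4 cultures with GM-CSF plus rTFF2 sit together at upper right, and those with GM-CSF alone spread from mouse 4 (7.46, 6.08) to mouse 2 (9.94, 8.92).

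Ferroportin is best known in the spleen from red pulp macrophages, which recycle the iron of red cells. Of 6 measured red pulp macrophage genes 2, *Clec4f* and *Vcam1*, had a group mean above background. *Clec4f* (a C-type lectin better known from liver macrophages) was called, and *Vcam1* was not. *Clec4f* had signals of 4.60, 4.40, 5.23 and 5.57 with GM-CSF plus rTFF2, against 2.86, 3.73, 2.94 and 2.77 with GM-CSF alone (adjusted p = 0.00505 by limma), where 3 of 4 arrays were under background, so the size of its rise is imprecise. *Spic*, the transcription factor that red pulp macrophages require, was under background on every array (2.47 to 2.75 with GM-CSF plus rTFF2, 2.47 to 2.67 with GM-CSF alone). So were *Cd163*, the receptor for haemoglobin bound to haptoglobin, *Siglec1* and *Cd5l*. Erythroid precursors also express ferroportin. Of 12 erythroid genes measured 1 had a group mean above background, and 1 was called higher with rTFF2. Their mean signal was 2.39 to 2.43 with GM-CSF plus rTFF2 and 2.38 to 2.42 with GM-CSF alone.

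Ceruloplasmin (*Cp*), a copper oxidase that readies exported iron for transferrin, was not measurable. All 7 of its probe sets were under background on all 8 arrays, with signals between 1.35 and 2.80. Their differences ran from -0.09 to 0.24, and their adjusted p-values from 0.055 to 0.802 by limma. The brightest of them (1448734_at, difference 0.24) was the nearest to a call.

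*Slc11a1* encodes NRAMP1, which pumps iron and other divalent metals out of the phagosome of macrophages and neutrophils. C57BL/6 mice carry an allele whose protein is known to work poorly, so the transcript may be present with little function. Its 1 probe set (1420361_at) had signals of 10.59, 10.38, 10.18 and 10.00 with GM-CSF plus rTFF2, against 8.92, 9.24, 8.87 and 8.91 with GM-CSF alone. The groups were well apart, with both spreads small (10.29 ± 0.25 and 8.99 ± 0.17, SD, n = 4 each). *Slc11a1* rose by 1.30 (SE 0.11, 95% interval 1.05 to 1.56), 2.47-fold, with an adjusted p of 0.00045 by limma, and by 1.09 to 1.67 in single mice. It had the smallest adjusted p among the members and stayed called under every alternative tried, with differences between 1.18 and 1.37. Like *Slc40a1*, it was brightest in mouse 2 among cultures with GM-CSF alone, but in cultures with rTFF2 it was brightest in mouse 1.

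*Slc11a2* encodes DMT1, which carries ferrous iron out of the endosome after transferrin has delivered it. It was a dim gene. Its brightest probe set (1452078_a_at) had signals of 4.54, 4.93, 4.46 and 4.70 with GM-CSF plus rTFF2, against 4.21, 4.36, 4.01 and 4.10 with GM-CSF alone. The groups did not overlap, and the gap between them was narrow. The difference was 0.49 (SE 0.08, 1.40-fold, adjusted p = 0.0042 by limma). A dimmer probe set (1417584_at) had signals of 4.05, 4.03, 3.79 and 3.76 with GM-CSF plus rTFF2, against 3.33, 3.44, 3.14 and 3.45 with GM-CSF alone, where 2 of 4 arrays were above background. It rose by 0.57 (1.48-fold, adjusted p = 0.00395 by limma). The third (1426441_at) was under background on all arrays and was called with a difference of 0.27 (adjusted p = 0.0494 by limma), a call lost in 6 of 12 alternatives. With the *Actb* measure as a covariate the 3 differences were 0.47, 0.46 and 0.49 in the order given, and none was called (adjusted p = 0.171, 0.219 and 0.117 by limma). With the offset of 32 the difference of the brightest was 0.20.

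*Hfe* encodes a protein of the major histocompatibility complex class I family that binds the transferrin receptor and acts in the control of hepcidin. Its loss causes haemochromatosis. The brighter probe set (1422645_at) had signals of 6.70, 7.28, 7.28 and 7.33 with GM-CSF plus rTFF2, against 8.37, 6.98, 8.73 and 8.65 with GM-CSF alone. The groups overlapped through mouse 2 alone. In mice 1, 3 and 4 *Hfe* was lower with rTFF2, by differences of -1.67, -1.46 and -1.33, and in mouse 2 it was higher, by 0.30. The mean difference was -1.04 (SE 0.30, 95% interval -1.75 to -0.33), 2.05-fold lower, with an adjusted p of 0.0439 by limma. This call lay near the threshold. It was lost without the block for mouse (adjusted p = 0.0668 by limma), and without mouse 1 (-0.83, adjusted p = 0.154), mouse 3 (-0.90, 0.157) or mouse 4 (-0.94, 0.145), while without mouse 2 the difference was -1.49 (0.000392). With the *Actb* measure as a covariate the difference was -2.31 and was called (adjusted p = 0.0172).

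The second *Hfe* probe set (1450702_at) stood near background. Its signals were 3.21, 3.62, 3.80 and 3.35 with GM-CSF plus rTFF2, against 4.21, 3.62, 4.28 and 4.21 with GM-CSF alone. Mouse 2 again showed no fall and the other 3 mice did. The difference was -0.58 (SE 0.16, adjusted p = 0.036 by limma), and the call was lost without mouse 1 (adjusted p = 0.128), mouse 3 (0.0925) or mouse 4 (0.131). It was lost with the offset of 32 (-0.18, adjusted p = 0.116) and, at a larger difference, with the *Actb* covariate (-1.12, adjusted p = 0.0587). The overlap came from the culture of mouse 2 with GM-CSF alone. In its group that culture had the lowest means of the dendritic cell and macrophage genes and the highest mean of the neutrophil genes. A link of these to *Hfe* was not tested.

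**Figure D3:**
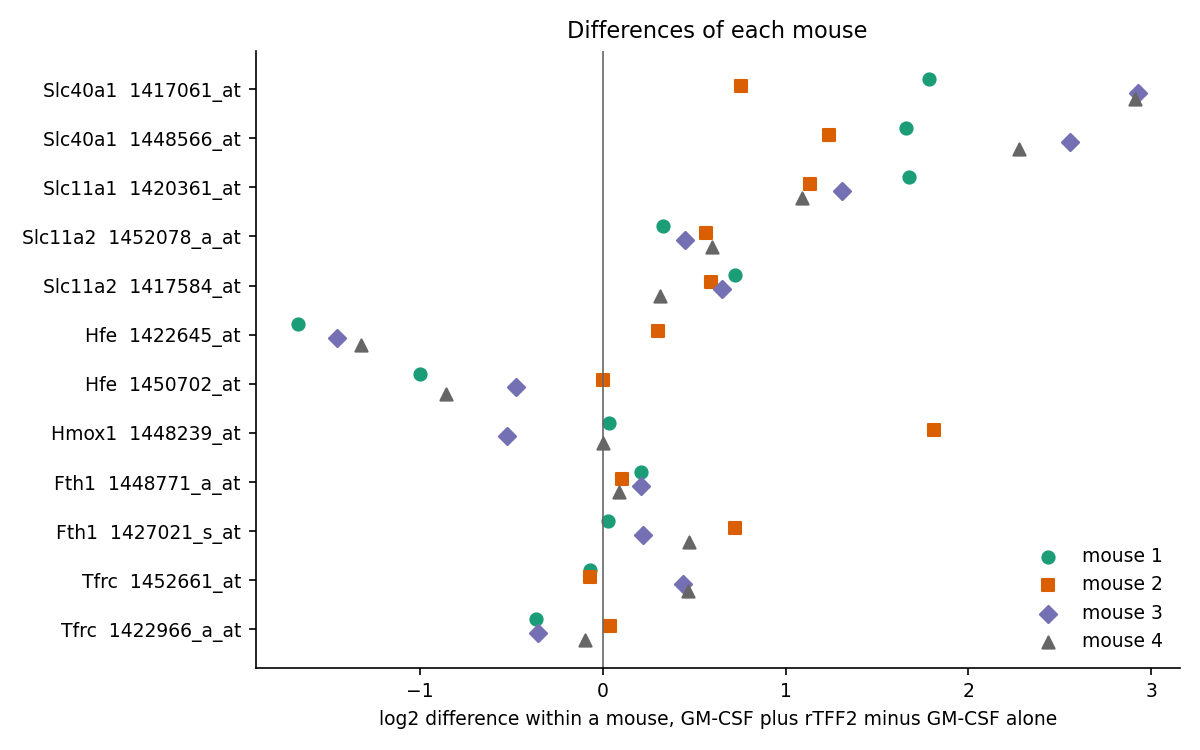
Log2 difference within each mouse, with rTFF2 minus without (horizontal axis), for member probe sets with a group mean above background (vertical axis); symbols are mice 1 to 4. Mouse 2 has the smallest difference for *Slc40a1* (0.76), the only positive one for *Hfe* 1422645_at (0.30) and the largest for *Hmox1* (1.81).

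Promoter sequences are shown for *Slc11a1*, the rise with the smallest adjusted p, and *Hfe*, the fall, as the 250 bases before the gene start in RefSeq (GRCm38.p6). Windows were found for 6 of the 9 genes and searched on both strands for the Maf recognition element (the site of Bach1 and its Maf partners, which regulate haem and iron genes), TGANTCA (AP-1), TGACNNNGC (antioxidant response element core), CACGTG (E-box) and ACGTG (hypoxia response element core, whose letters the E-box contains). Capitals mark the match to the Maf recognition element.
Slc11a1, chr1:74374953-74375202, plus strand: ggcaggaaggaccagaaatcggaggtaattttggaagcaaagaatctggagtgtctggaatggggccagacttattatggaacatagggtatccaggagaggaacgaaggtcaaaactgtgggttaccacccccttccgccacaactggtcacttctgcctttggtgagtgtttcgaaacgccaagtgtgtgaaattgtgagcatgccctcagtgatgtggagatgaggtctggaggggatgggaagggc
Hfe, chr13:23710855-23711104, minus strand: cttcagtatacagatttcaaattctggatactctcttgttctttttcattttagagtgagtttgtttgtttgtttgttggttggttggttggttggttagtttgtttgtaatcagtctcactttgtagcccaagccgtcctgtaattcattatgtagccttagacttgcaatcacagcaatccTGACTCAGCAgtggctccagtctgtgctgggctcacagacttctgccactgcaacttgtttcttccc
The *Slc11a1* window held none of the 5 motifs. The *Hfe* window held the Maf recognition element on the opposite strand, starting 67 bases before the gene start, and the AP-1 and antioxidant response letters overlap it. Of 32851 promoter windows of this length 0.353% held the Maf recognition element, 6.75% the AP-1 site, 10.2% the antioxidant response core, 6.02% the E-box and 16.6% the hypoxia response core. The only other matches among the members were an AP-1 site 177 bases before the start of *Cp* and a hypoxia response core 228 bases before a start of *Tfrc*. A match of letters does not show that a factor binds there.

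*Tfrc* encodes the transferrin receptor, the main route of iron uptake and a transcript of dividing cells. Its bright probe set (1452661_at) had signals of 11.03, 11.48, 10.77 and 10.74 with GM-CSF plus rTFF2, against 11.10, 11.55, 10.33 and 10.28 with GM-CSF alone. The mice stood in the same order in both groups, and the spread between mice was larger than that between treatments. Mice 3 and 4 were higher with rTFF2 and mice 1 and 2 slightly lower. The difference was 0.19 (SE 0.12, 95% interval -0.09 to 0.47, adjusted p = 0.289 by limma), and 0.59 with the *Actb* covariate (adjusted p = 0.137). The dim probe sets 1422966_a_at (-0.20, adjusted p = 0.169) and 1422967_a_at (0.03, 0.909) were not called either, and the 3 control probe sets, with signals of 2.66 to 4.04 over the 8 arrays, differed by -0.12 to -0.05.

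*Hmox1* encodes haem oxygenase, which opens the haem ring and frees its iron. Its signals were 7.61, 7.56, 7.86 and 7.76 with GM-CSF plus rTFF2, against 7.58, 5.75, 8.39 and 7.76 with GM-CSF alone (1448239_at). With rTFF2 the 4 cultures were alike. With GM-CSF alone mouse 2 stood well below the others. The difference was 0.33 (SE 0.34, 95% interval -0.47 to 1.13, adjusted p = 0.525 by limma), and it turned to -0.16 without mouse 2 (adjusted p = 0.423) and to -1.19 with the *Actb* measure as a covariate (adjusted p = 0.0775). The mean difference of *Slc11a1* (1.30) lay above this interval, but the interval of *Slc11a1* began at 1.05, so the intervals overlapped.

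Ferritin, the iron store, is a shell of heavy chains (*Fth1*), which oxidise iron, and light chains (*Ftl1*), which help it to mineralise. *Fth1* was among the brightest transcripts on the arrays. Its brightest probe set (1448771_a_at) had signals of 14.50, 14.45, 14.51 and 14.42 with GM-CSF plus rTFF2, against 14.30, 14.35, 14.30 and 14.34 with GM-CSF alone. The groups did not overlap, and the whole range of the 8 values was narrow. The highest signal on each array lay between 14.48 and 14.64, so this probe set stood near the top of the scale. The difference was 0.15 (SE 0.07, 95% interval -0.01 to 0.31, adjusted p = 0.152 by limma), and it passed the threshold with the offset (adjusted p = 0.0427) and with a trended and robust prior (0.0153). The other probe set (1427021_s_at) had signals of 13.14, 13.50, 13.56 and 13.81 with GM-CSF plus rTFF2, against 13.11, 12.78, 13.34 and 13.34 with GM-CSF alone. These groups overlapped, with a difference of 0.36 (SE 0.12, adjusted p = 0.0642 by limma). It passed the threshold after quantile normalization (adjusted p = 0.0455), with the trended and robust prior (0.042) and without mouse 1 (0.0432), whereas the difference was 0.24 without mouse 2 and 0.09 with the *Actb* covariate.

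The light chain could not be read by itself. The annotation gave 3 probe sets to *Ftl1* together with its pseudogene *Ftl1-ps2*, 1 of them also with microRNA genes, and their signal cannot be assigned to 1 gene. They had signals of 13.89 to 14.05 with GM-CSF plus rTFF2 against 13.71 to 13.91 with GM-CSF alone (1418364_a_at), 12.96 to 13.16 against 12.39 to 12.95 (1422302_s_at), and 9.54 to 10.14 against 9.12 to 9.51 (1422301_at). All were higher with rTFF2 in 4 of 4 mice. The differences were 0.18, 0.29 and 0.61 in that order, and 1422301_at was called (adjusted p = 0.00804 by limma), the probe set that also lists the microRNA genes.

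**Figure D4:**
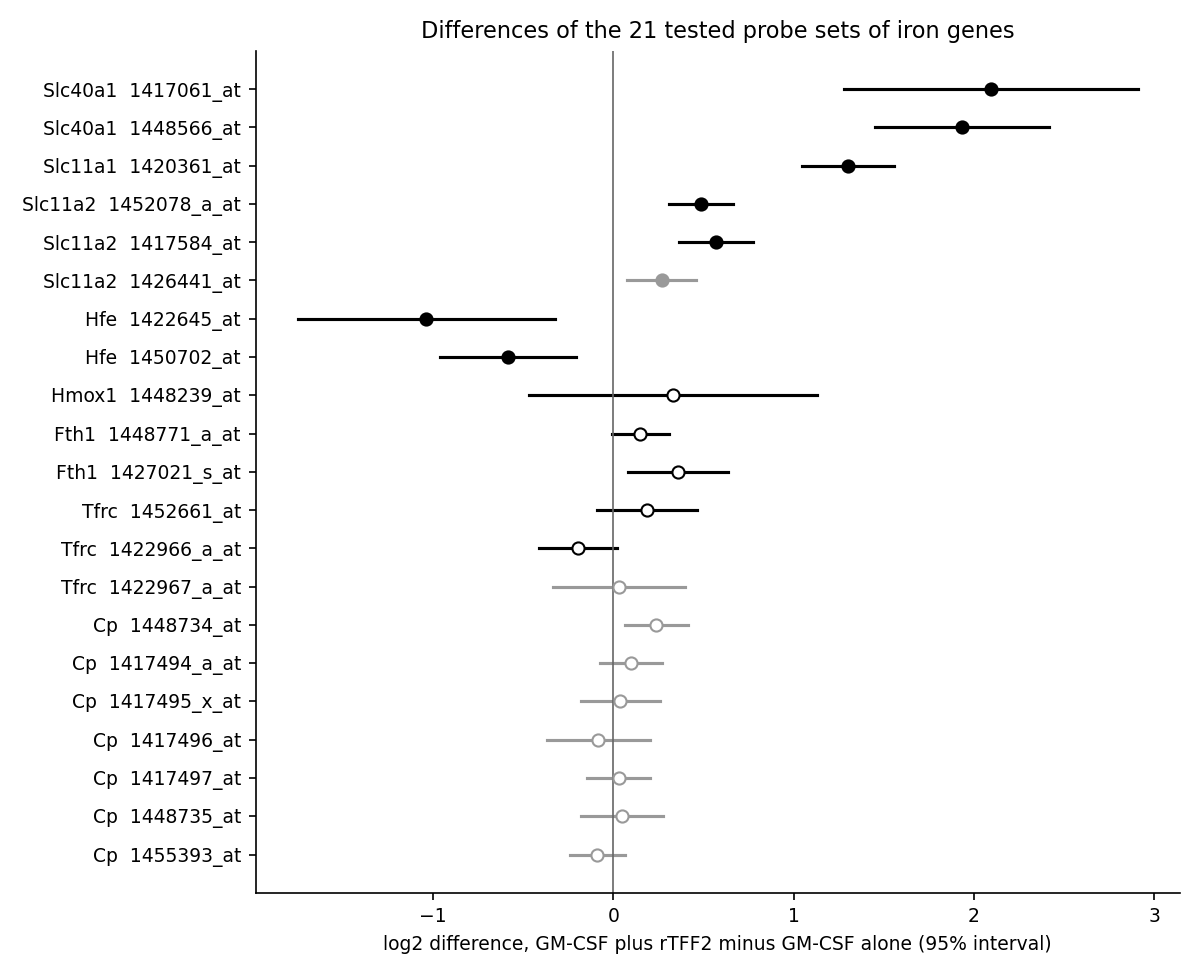
Log2 difference, with rTFF2 minus without, and its 95% interval (horizontal axis, n = 4 mice) for the 21 tested member probe sets (vertical axis). Filled points were called at an adjusted p below 0.05, and grey marks probe sets with both group means at or under background. *Slc40a1* reaches 2.09, *Hfe* -1.04, and all 7 *Cp* probe sets are grey.

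Other genes of iron and haem handling were taken from 7 lists, with 1 probe set per gene. Of 90 listed genes 76 were measured, of which 20 were called higher (26.3%, against 14.5% of all genes) and 9 lower (11.8%, against 13.3%). The lists were chosen with earlier results of these data known, so these shares are a description and not a test. The median difference of the 76 genes was 0.05, and that of all genes -0.03. The count of 29 calls fell to 18 without mouse 3, 19 without mouse 4 and 7 with the *Actb* covariate. Calls over all probe sets fell too, from 5811 to 3791, 4153 and 1588 in that order.

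Of 11 uptake and reduction genes measured, 4 were called higher and 1 lower. *Ltf*, the lactoferrin of neutrophil granules, which binds iron outside the cell, had signals of 12.90, 13.22, 13.14 and 13.26 with GM-CSF plus rTFF2, against 11.20, 12.33, 8.85 and 7.59 with GM-CSF alone (difference 3.14, adjusted p = 0.0198 by limma). The call was lost with the offset (adjusted p = 0.101), the trended and robust prior (0.145), without mouse 3 (0.0875) and without mouse 4 (2.29, 0.0506), and the difference was 6.32 with the *Actb* covariate (0.00763). Its mice with GM-CSF alone were in the order seen for *Slc40a1*. *Lcn2*, which captures bacterial siderophores and is also a granule protein, rose by 1.31 (adjusted p = 0.00761 by limma). That call was lost with the offset (adjusted p = 0.0573) and the trended and robust prior (0.0682), and the difference was 2.39 with the *Actb* covariate (0.0029). The zinc and iron transporter *Slc39a14* rose by 0.52 (adjusted p = 0.00455). Its relative *Slc39a8* was called higher (adjusted p = 0.0103) but was dim, with 1 of 4 arrays above background with GM-CSF alone, and lost the call with the offset (0.17, adjusted p = 0.0716). The fifth, *Steap3*, the endosomal ferrireductase, was near background (2.65 to 2.88 with GM-CSF plus rTFF2, 2.86 to 3.41 with GM-CSF alone) and its difference of -0.34 (adjusted p = 0.0303) lost its call in 6 of 12 alternatives.

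Of 12 genes of haem and haemoglobin handling 3 were called higher and 1 lower. *Hp*, haptoglobin, which binds free haemoglobin, had signals of 11.58, 11.48, 12.01 and 11.97 with GM-CSF plus rTFF2, against 10.40, 10.51, 11.02 and 10.85 with GM-CSF alone. Each mouse moved by nearly the same amount, and the difference was 1.07 (adjusted p = 0.000243 by limma). *Lrp1*, the receptor for haem bound to haemopexin, rose by 0.89 (adjusted p = 0.000532), and *Blvrb*, a biliverdin reductase downstream of haem oxygenase, by 0.46 (adjusted p = 0.0114). *Slc48a1*, the haem transporter of the phagolysosome, differed by 0.31 without a call (adjusted p = 0.0643), and the call for *Flvcr2* (-0.48, adjusted p = 0.0173) was of a gene under background on all arrays.

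Of 7 genes of iron sensing and the hepcidin axis measured, 1 was called, and it was lower. *Aco1*, iron regulatory protein 1 and cytosolic aconitase, had signals of 10.85, 10.83, 10.83 and 10.47 with GM-CSF plus rTFF2, against 11.05, 11.23, 11.05 and 11.00 with GM-CSF alone (difference -0.34, adjusted p = 0.0221 by limma). The call was lost without mouse 2 (adjusted p = 0.0657) or mouse 4 (0.0811). Its partner *Ireb2*, iron regulatory protein 2, differed by 0.17 (adjusted p = 0.138), and *B2m*, the light chain that Hfe needs to reach the surface, by 0.10 (adjusted p = 0.365).

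Of 8 genes of iron storage and trafficking inside the cell, 2 were called, both higher. *Slc25a37*, mitoferrin 1, which brings iron into mitochondria, had signals of 9.21, 8.62, 9.20 and 9.21 with GM-CSF plus rTFF2, against 7.38, 7.70, 7.84 and 8.15 with GM-CSF alone. The groups did not overlap and the difference was 1.29 (adjusted p = 0.00123 by limma). *Mcoln1*, a cation channel that lets iron leave lysosomes, rose by 0.66 (adjusted p = 0.00673). *Ncoa4*, the receptor that takes ferritin to the lysosome, differed by 0.15 (adjusted p = 0.17).

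Genes of the pathways that consume iron were called in both directions, and so were genes at large (14.5% of all genes higher, 13.3% lower). Of 16 iron-sulphur cluster genes 3 were called higher, among them the scaffold *Iscu* (0.37, adjusted p = 0.0119 by limma) and *Isca1* (0.24, adjusted p = 0.0316), and 3 lower, the chaperone *Hspa9* (-0.28, adjusted p = 0.0215), the ferredoxin *Fdx1* (-0.36, adjusted p = 0.0335) and *Nubp1* of the cytosolic assembly pathway (-0.69, adjusted p = 0.0072). The *Isca1* call was lost in 9 of 13 alternatives, every fit with a mouse left out among them, that of *Fdx1* in 5 and that of *Hspa9* in 4. Of 11 haem synthesis genes 4 were called higher and 2 lower. *Alas1*, the first enzyme of the pathway outside red cell precursors, rose by 0.47 (adjusted p = 0.00728), as did *Ppox* (0.40, adjusted p = 0.0123) and the porphyrin transporter *Abcb6* (0.52, adjusted p = 0.0167). *Cpox*, the enzyme just before *Ppox*, fell by 0.71 on the log2 scale (adjusted p = 0.00304), and *Slc25a38*, the mitochondrial glycine carrier, also by 0.71 (adjusted p = 0.0151). The *Abcb6* call was lost in 6 of 13 alternatives and that of *Slc25a38* in 4. Without mouse 1 or mouse 3 there were 2 calls among the cluster genes, and without mouse 4 there were 3 among the haem synthesis genes. Calls over all probe sets fell from 5811 to 3609, 3791 and 4153 without mouse 1, 3 and 4. With the *Actb* covariate limma called 1 of the 16 cluster genes and 0 of the 11 haem synthesis genes. Over the whole array it called 1588 of 22626 probe sets in that fit.

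Of 11 transcription factors of iron and haem genes 4 were called higher and 1 lower. *Bach1*, a repressor that haem releases from DNA, had signals of 11.30, 11.18, 11.04 and 10.87 with GM-CSF plus rTFF2, against 10.65, 11.03, 10.50 and 10.44 with GM-CSF alone (difference 0.44, adjusted p = 0.0143 by limma). The groups overlapped, since mouse 2 with GM-CSF alone was above mouse 4 with rTFF2, while each mouse was higher with rTFF2. Its partner *Mafg* rose by 0.87 (adjusted p = 0.000911), *Hif1a*, the oxygen-regulated factor, by 0.58 (adjusted p = 0.00312), and *Mtf1*, the metal-responsive factor, by 0.45 (adjusted p = 0.00375). *Maff* had a difference of -0.29 (adjusted p = 0.0431), a call lost in 8 of 13 alternatives, no block for mouse (0.261) and each fit without mouse 2, 3 or 4 among them, and the *Bach1* call was lost in 5. *Nfe2l2*, the activator that competes with Bach1, differed by 0.18 (adjusted p = 0.13). With the *Actb* covariate limma called 0 of the 11 factors, and 1588 of all 22626 probe sets.

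**Figure D5:**
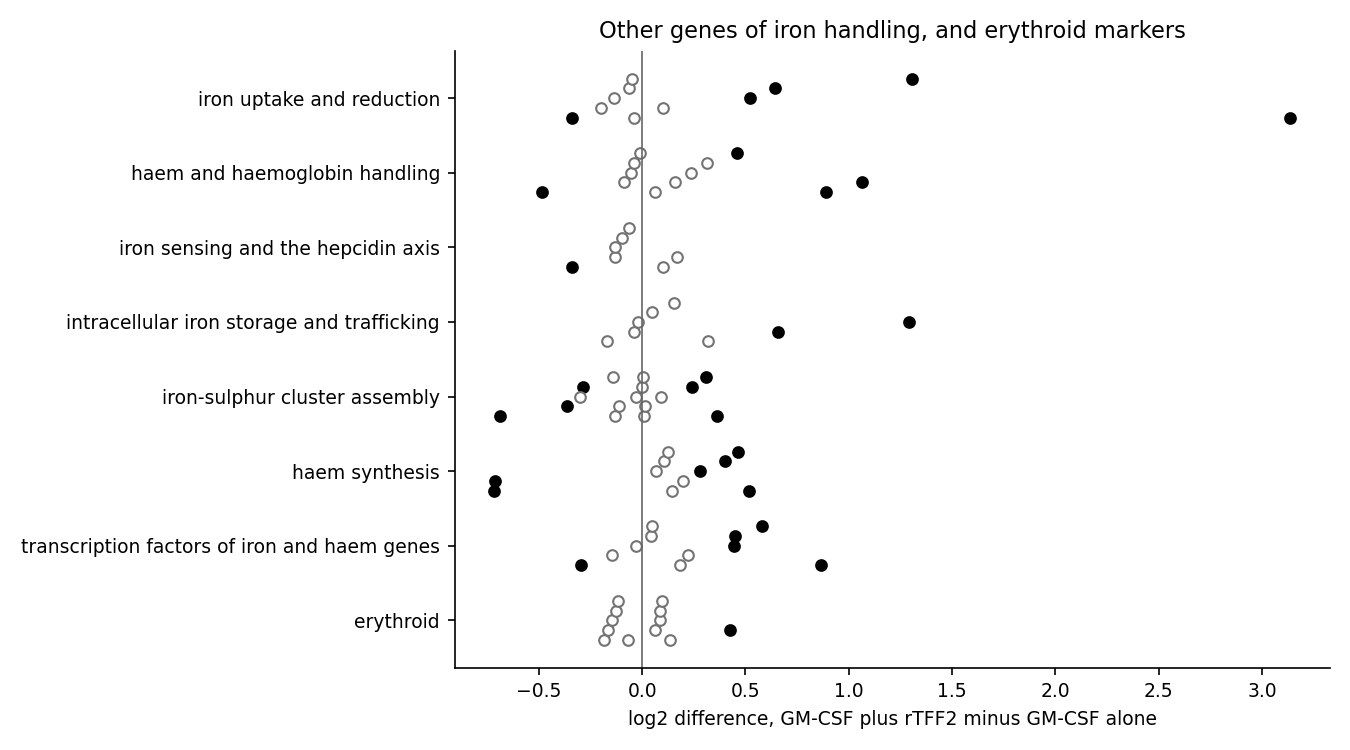
Log2 difference, with rTFF2 minus without (horizontal axis), of each measured gene of the 7 iron lists and of the erythroid markers (vertical axis). Each point is a gene, filled where called at an adjusted p below 0.05; vertical position within a list only separates the points. *Ltf* (3.14) lies farthest out, and most other points lie between -0.7 and 0.7.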

How the data were processed

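RNA of 8 cultures of splenic Gr1+Cd11b+ cells from 4 *Tff2*-/- mice was hybridised to Affymetrix mouse arrays, 4 per group. The authors deposited log2 values from GCRMA, which corrects background by probe sequence, quantile-normalizes the arrays and summarises each probe set (GCRMA 2.30.0 and affy 1.36.0 in the submitters' processing notes). GCRMA compresses signals near background, so differences of dim probe sets are imprecise, and quantile normalization removes shifts common to all genes. Depth has no meaning for arrays, and their number limits the precision.

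After 64 control probe sets were left out, limma 3.58.1 in R 4.3.3 (lmFit, eBayes) was run on these values. Mouse was a fixed block, since sample descriptions give both cultures of a pair the same animal number and the methods state that each mouse's cells were divided. Deviations of same-mouse arrays from the group means correlated at 0.05, 0.54, 0.31 and 0.39 for mice 1 to 4 over 13107 probe sets above background, and those of different mice at -0.54 to 0.34. Symbols came from the platform annotation: of the tested probe sets, 20380 had 1 symbol, 691 several and 1555 none. A list gene was represented by its brightest probe set with 1 symbol. The test was checked on simulated data. Members and lists were chosen with earlier results of these data known. Named were all members, in each iron list the called genes with the smallest adjusted p (up to 5) and genes whose main role is that of the list, the leading genes of some marker lists, and the genes most like *Slc40a1*; *Clec4f*, *Siglec1*, *Cd5l*, *Itgam*, *Mpo*, *Mrc1*, *Mertk* and the C1q genes are given as values beside results. Alternatives were no block, a random block, no dim probe sets, other scalings, array weights and 32 added to the linear signals. Others were a prior that is trended and robust, the *Actb* measure as covariate, and each mouse left out. The mean over a gene's probe sets was tried only for the counts of calls in the iron lists, not for single probe sets.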

Additional observations from a re-analysis of the deposited data

Results flagged for a closer look

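In 93 groups of 4 cultures, 10 had 1 value far from the other 3 by Dixon's criterion, where chance gives about 1 group in 20. Among the members, *Slc11a1* was high in mouse 2 with GM-CSF alone (9.24, others 8.87 to 8.92). *Hfe* 1422645_at was low in mouse 1 with GM-CSF plus rTFF2 (6.70, others 7.28 to 7.33), and *Hfe* 1450702_at was low in mouse 2 with GM-CSF alone (3.62, others 4.21 to 4.28). Mouse 2 with GM-CSF plus rTFF2 was low in *Slc25a37* (8.62, others 9.20 to 9.21), *Mafg* (9.84, others 10.21 to 10.23) and *Maff* (5.73, others 6.20 to 6.27). Mouse 4 with GM-CSF plus rTFF2 was low in *Aco1* (10.47, others 10.83 to 10.85) and high in *Iscu* (10.69, others 10.51 to 10.53). *Ireb2* was high in mouse 1 with GM-CSF plus rTFF2 (9.05, others 8.77 to 8.80), and *Cpox* was high in mouse 1 with GM-CSF alone (7.69, others 7.51 to 7.53). *Hmox1* in mouse 2 with GM-CSF alone (5.75) did not reach the criterion.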

How the results depend on the processing

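*Slc40a1* (both probe sets) and *Slc11a1* kept direction and call under every alternative tried. Of all probe sets 5811 were called, 4927 with no replicate block, 1588 with the *Actb* measure as covariate and 3609 to 5006 with a mouse left out (3609 without mouse 1). Centring the arrays on their medians made 42.3% of calls higher, against 53.3% as reported. Of member probe sets 8 were called, and also 8 with no replicate block, where the brighter *Hfe* probe set was lost and *Cp* 1448734_at gained (adjusted p = 0.0422 by limma), 4 with the covariate and 5 to 9 with a mouse left out. Of 29 calls among iron list genes, 22 were the count with no replicate block, 19 with the offset, 7 with the covariate and 18 to 23 with a mouse left out. The brighter *Hfe* probe set lost its call with no replicate block (-1.04, adjusted p = 0.0668 by limma), the offset (-0.91, 0.151), the trended and robust prior (-1.04, 0.0898) and in 3 of the fits with a mouse left out, whose differences ran from -1.49 to -0.83, and kept it with the covariate (-2.31, 0.0172). *Hmox1* turned to -1.19 with the covariate and ran from -0.16 to 0.61 with a mouse left out. *Slc11a2* 1452078_a_at lost its call with the covariate (0.47, 0.171), and *Fth1* 1448771_a_at gained one with the offset (0.15, 0.0427) and the prior (0.15, 0.0153). *Tfrc* 1422967_a_at turned to -0.0172 with centring and -0.0103 with the offset, ran from -0.13 to 0.19 with a mouse left out and was 0.64 with the covariate. Without the block no other member's call changed. For the named iron list genes, 72 of the combinations of gene and alternative lost the call, 342 kept their side of the threshold and 0 turned direction. The cause was not tested; leaving out a mouse or adding a covariate also leaves fewer residual degrees of freedom. Dim probe sets (*Cp*, *Slc11a2* 1426441_at) have no measurable level, and 4 mice cannot give an exact permutation p below 0.125.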
